A study of Mus musculus with 15 samples.

Results

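The nuclear genes of the mitochondrial ribosome were followed through a mouse study of cardiac ischaemia and reperfusion. They were taken by name, as every gene listed with a symbol that begins Mrpl or Mrps followed by a digit and with the type protein-coding. This gave 72 of 16658 genes, of which 44 are named for the large subunit (Mrpl) and 28 for the small subunit (Mrps). The naming rule itself uses no measured value.

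The hearts came from male C57BL/6 mice of 8 to 10 weeks, and the tissue held the infarct with the muscle around it. The first group received activated protein C (aPC), an anticoagulant and cell-protective protease, at 1 mg/kg and 30 min ahead of surgery. Another was given rivaroxaban, an inhibitor of coagulation factor Xa, at 3 mg/kg over 7 days, and a further group dabigatran, an inhibitor of thrombin, at 10 mg/kg over 7 days. The fourth is labelled untreated and the fifth sham. The left anterior descending coronary artery was tied for 90 min, the heart was reperfused for 24 h, and drugs were resumed 2 h after the operation. The surgery is set out in the labels for all samples together, and the untreated and sham groups go here by their labelled names. Values of 11 libraries were read: aPC-791 and aPC-792, Riva-313 and Riva-319 (rivaroxaban), Dabi-202 and Dabi-204 (dabigatran), untreated replicates 17 and 19, and sham replicates 003, 006 and 007. The other 4 labelled samples were not analysed here. The labels do not say whether each library is a separate animal, so the p-values measure the spread between these libraries.

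Mitochondria keep their own ribosome, which translates the few respiratory chain subunits that mitochondrial DNA encodes. All of its proteins are encoded in the nucleus, made in the cytosol and imported, where they assemble with mitochondrial ribosomal RNA into a small subunit that reads the message and a large subunit that forms the peptide bond. Many have a counterpart in the bacterial ribosome and others are found only in mitochondria. Heart muscle is packed with mitochondria and depends on this ribosome for its respiratory chain, and in people inherited defects of MRPL3, MRPL44 or MRPS22 cause cardiomyopathy in infancy.

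Levels are log2 CPM, the reads of a gene on a log scale after each library was brought to a common size with TMM, a scaling that assumes most genes to be alike between libraries. Library depth ran from 26203566 to 36135006 reads on listed genes. The untreated pair stood furthest apart, with an SD of 0.79 for the log2 difference over all genes, against 0.40 in the aPC pair, 0.31 in the rivaroxaban pair, 0.48 in the dabigatran pair and 0.31 to 0.37 in the sham pairs. Gm42418, a gene that overlaps ribosomal RNA sequence, held 6.78% and 6.73% of reads in the aPC libraries and 0.997% to 2.09% in the other 9. The ratio of the TMM-scaled library size to the read total was 0.867 and 0.916 in the aPC libraries and 0.909 to 1.11 in the other 9. Cardiomyocyte markers were present in every library, and the lowest value of any of the 7 was 10.40 log2 CPM, for Ryr2 in Dabi-202. In such bulk tissue, fewer cells of a type and less RNA per cell cannot be told apart.

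The upstream regions of some of the genes named below are shown first. They were picked from the genes with the largest changes or distinct profiles, and do not stand for all of those. RefSeq gave a 300-base window, from 250 bases before to 50 after the transcript start on GRCm38.p6, for 64 of the 72 genes. Capitals mark matches, on either strand, to 4 short motifs of factors known to bind promoters of mitochondrial genes: GCATGCGC (nuclear respiratory factor 1, NRF1), CCGGAAG (the ETS family, which includes the GA-binding protein), AAGATGGCG (YY1) and GGGCGGG (SP1). The windows lie at chr8:71464676-71464975 on the plus strand for Mrpl34, chr14:20393441-20393740 on the minus strand for Mrps16, chr17:35916391-35916690 on the minus strand for Mrps18b, chr16:84735195-84735494 on the minus strand for Mrpl39 and chr13:73330759-73331058 on the plus strand for Mrpl36.
Mrpl34 promoter: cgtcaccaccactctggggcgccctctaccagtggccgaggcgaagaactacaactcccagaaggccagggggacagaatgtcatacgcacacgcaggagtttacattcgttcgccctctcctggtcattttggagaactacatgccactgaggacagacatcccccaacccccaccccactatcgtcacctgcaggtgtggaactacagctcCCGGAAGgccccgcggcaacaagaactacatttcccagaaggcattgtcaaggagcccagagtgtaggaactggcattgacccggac
Mrps16 promoter: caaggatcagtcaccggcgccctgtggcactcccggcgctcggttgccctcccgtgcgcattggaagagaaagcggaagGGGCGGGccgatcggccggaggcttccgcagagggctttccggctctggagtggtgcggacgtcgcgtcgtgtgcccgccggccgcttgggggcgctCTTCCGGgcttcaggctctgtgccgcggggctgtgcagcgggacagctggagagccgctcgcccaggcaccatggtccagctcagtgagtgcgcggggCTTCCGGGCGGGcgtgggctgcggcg
Mrps18b promoter: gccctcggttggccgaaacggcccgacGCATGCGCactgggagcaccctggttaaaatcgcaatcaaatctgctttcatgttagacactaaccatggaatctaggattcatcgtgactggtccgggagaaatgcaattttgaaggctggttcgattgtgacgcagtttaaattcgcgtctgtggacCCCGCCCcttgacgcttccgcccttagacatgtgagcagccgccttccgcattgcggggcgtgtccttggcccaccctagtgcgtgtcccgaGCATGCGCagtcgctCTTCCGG
Mrpl39 promoter: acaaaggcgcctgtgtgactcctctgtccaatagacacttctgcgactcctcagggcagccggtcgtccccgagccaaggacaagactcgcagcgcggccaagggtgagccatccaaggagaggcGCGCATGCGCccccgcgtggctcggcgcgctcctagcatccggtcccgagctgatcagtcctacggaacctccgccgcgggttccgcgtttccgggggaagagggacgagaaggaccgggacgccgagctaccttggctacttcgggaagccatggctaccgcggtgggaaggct
Mrpl36 promoter: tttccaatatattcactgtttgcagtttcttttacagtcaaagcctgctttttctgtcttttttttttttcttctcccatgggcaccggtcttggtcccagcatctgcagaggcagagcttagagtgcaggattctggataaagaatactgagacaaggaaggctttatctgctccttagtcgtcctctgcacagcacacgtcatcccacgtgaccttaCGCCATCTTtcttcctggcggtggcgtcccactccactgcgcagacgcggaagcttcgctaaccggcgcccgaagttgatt

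Mrpl34 has an ETS match upstream of its start. Mrps16 has 2 ETS and 2 SP1 matches, 1 of each sharing letters near the 3′ end of the window, and RefSeq lists another start for it that is not shown. Mrps18b has 2 NRF1 matches, an ETS match and an SP1 match. In Mrpl39 the NRF1 letters can be read on both strands of a single stretch, and Mrpl36 has a YY1 match. Among the 68 windows of the 64 genes, 23 (33.8%) held the ETS letters, against 14.5% of 15861 windows of listed genes. The YY1 letters stood in 8 (11.8%), against 2.36%, and the NRF1 letters in 6 (8.82%), against 4.41%. The SP1 letters stood in 27 (39.7%), against 41.2%. The pentamer CCAAT, which is not marked above, stood in 25 (36.8%), against 37.0%. Every gene shown has a match, whereas the windows of Mrpl47 and Mrpl24, also named below, hold none of the marked motifs. These are matches of letters in a window and do not show that a factor binds.

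Levels between genes were compared per kilobase of exon, taking all annotated exons of a gene together, so the ranking depends on annotated length. Mrps21, a small-subunit protein with a bacterial counterpart, was highest at 109 CPM per kb on average over the 11 libraries, followed by the small-subunit protein Mrps23 at 95.3 CPM per kb. The large-subunit proteins Mrpl34 and Mrpl28 came next, at 71.6 and 65.2 CPM per kb. The lowest was Mrps18a at 1.63 CPM per kb, below Mrps10 at 3.07, Mrps22 at 4.49 and Mrps30 at 4.55 CPM per kb. Mrps18a and Mrps30 carry small-subunit names although their proteins sit in the large subunit, and Mrps10 and Mrps22 are small-subunit proteins. Mrps21 and Mrps23 overlap in their range over libraries, as do Mrps22 and Mrps30, whereas Mrps18a lies below every other gene in its range. Summed per kb, the 44 Mrpl genes stood at 1.71 to 1.73 times the 28 Mrps genes in the aPC libraries and at 1.64 to 1.76 times in the other 9. The balance between the names was thus close to the same in every library, and its size also reflects the unequal gene numbers.

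**Figure D1:**
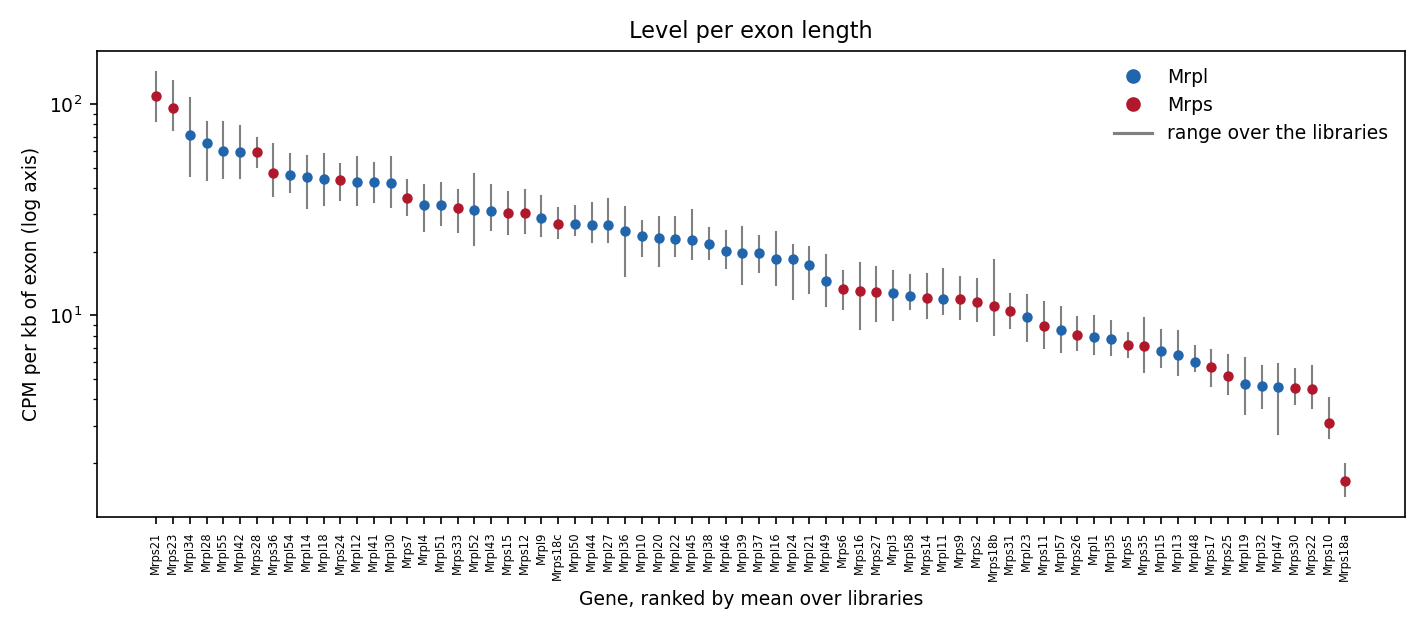
Mean level of each of the 72 genes in CPM per kb of exon (log axis), ranked from high to low; points are means over the 11 libraries (blue Mrpl, red Mrps) and grey bars run from the lowest to the highest library. Levels run from 109 for Mrps21 to 1.63 CPM per kb for Mrps18a.

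The genes moved together from library to library. Their summed level was 4468 and 4483 CPM in the aPC libraries, 3268 and 3418 in the rivaroxaban, 3558 and 3077 in the dabigatran, 3119 and 3601 in the untreated and 3717, 4037 and 3342 in the sham libraries. Both aPC libraries lay above all 9 others, and those 9 overlapped across their groups. As a share of reads on listed genes, without TMM, the genes took 0.387% and 0.411% in the aPC libraries, against 0.334% to 0.409% in the sham and 0.318% to 0.371% in the remaining 6. On that scale the aPC libraries overlapped the sham libraries. An aPC library held the highest value in 58 of the 72 genes (30 in aPC-791, 28 in aPC-792) and the lowest in 0, where 18.9% of all tested genes were highest in an aPC library. Both aPC libraries lay above all 9 others in 40 genes (8.28% of all tested genes). The lowest value fell in Dabi-204 for 21 genes, in untreated replicate 17 for 18 and in Riva-313 for 12. Shares of all tested genes were not counted for lowest values, so these counts only describe the 72 genes.

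**Figure D2:**
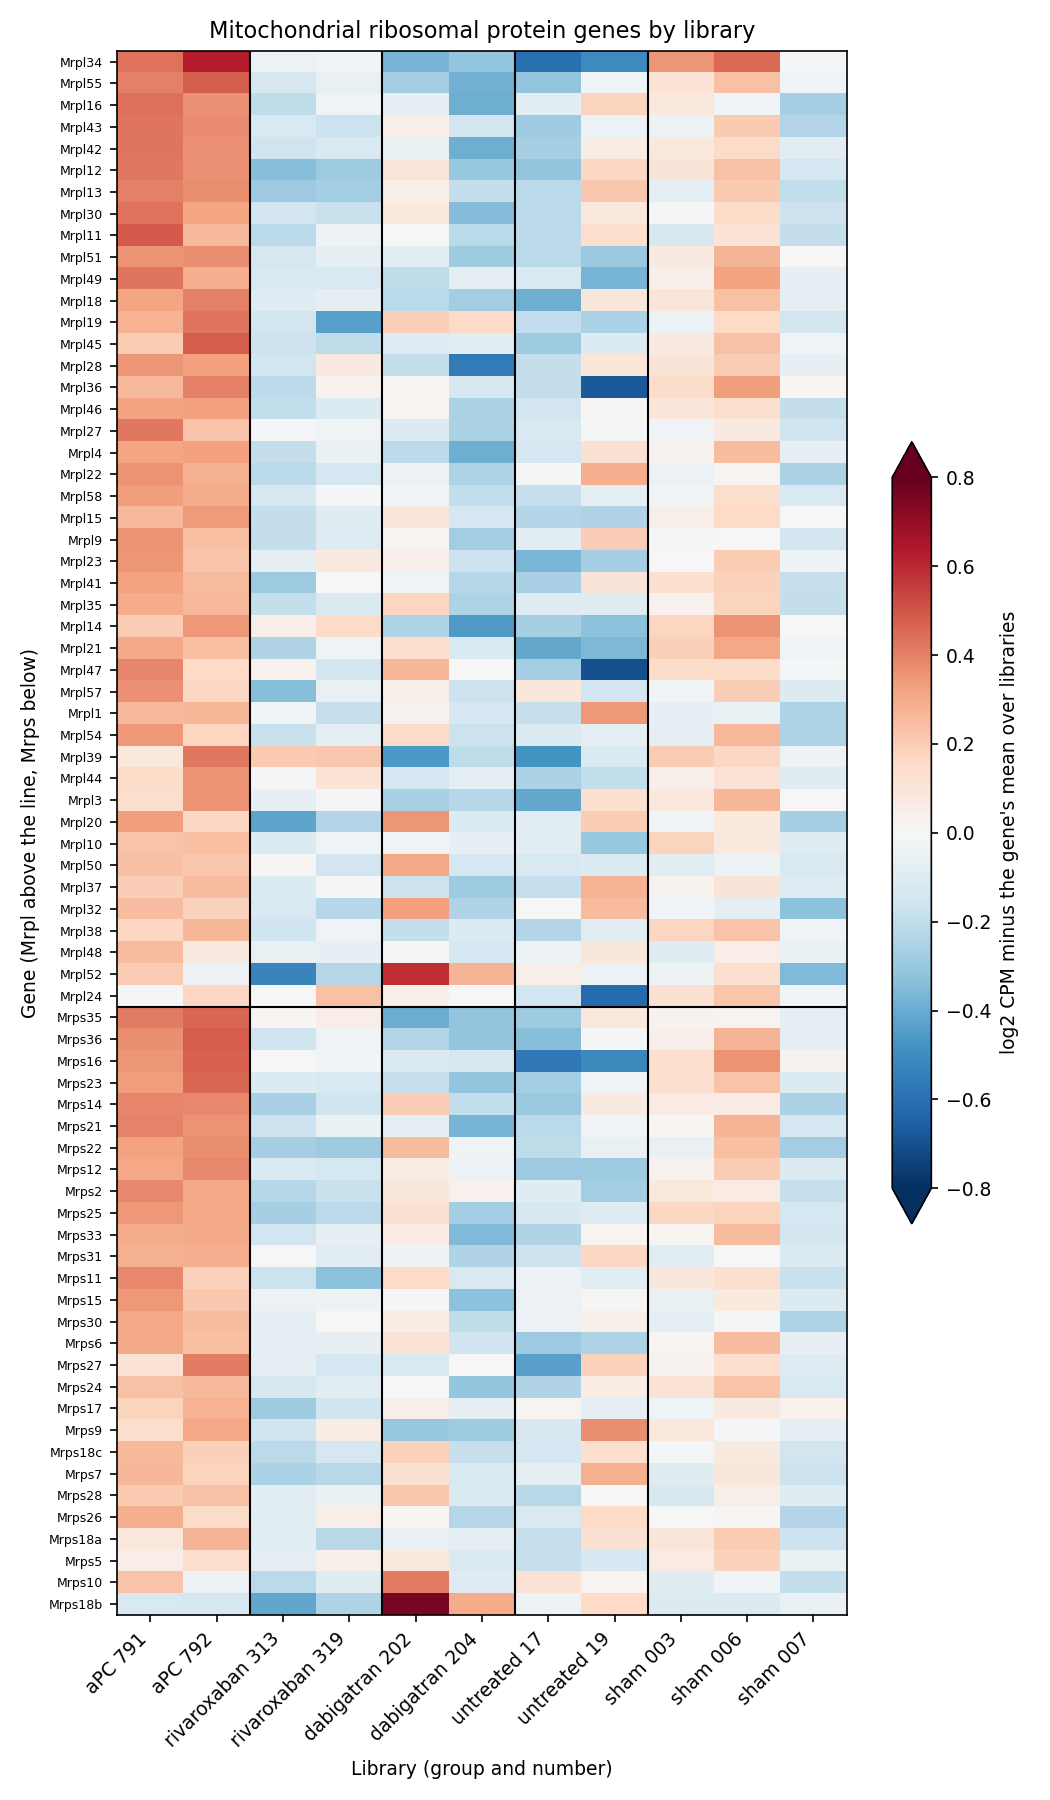
Each row is a gene, each column a library, and colour gives log2 CPM minus the mean of that gene over the 11 libraries, from blue (lower) to red (higher), clipped at 0.8; rows are ordered by the mean of the aPC libraries within Mrpl and within Mrps. Red fills the aPC columns in nearly all rows, and Mrps18b, at the foot, is highest in the dabigatran columns.

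Over all pairs of the 72 genes, the median Pearson correlation across the 11 libraries was 0.69, and 96.1% of pairs were above 0. The libraries share depth, scaling and group structure, so this describes how alike the profiles are and no more. Mrpl46 followed the mean of the other genes most closely (r = 0.98). Mrps18b (-0.11), Mrpl52 (0.26), Mrpl24 (0.27) and Mrps10 (0.32) followed it least.

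Replicates of a group also differed in the level of the whole set. Sham replicate 006 exceeded sham replicate 007 in 71 of 72 genes, with a median log2 difference of 0.27. Dabi-202 exceeded Dabi-204 in 62 genes (median 0.21), and untreated replicate 19 exceeded replicate 17 in 57. Between the aPC libraries the median difference was 0.02, and aPC-791 was the higher in 38 genes and aPC-792 in 34.

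**Figure D3:**
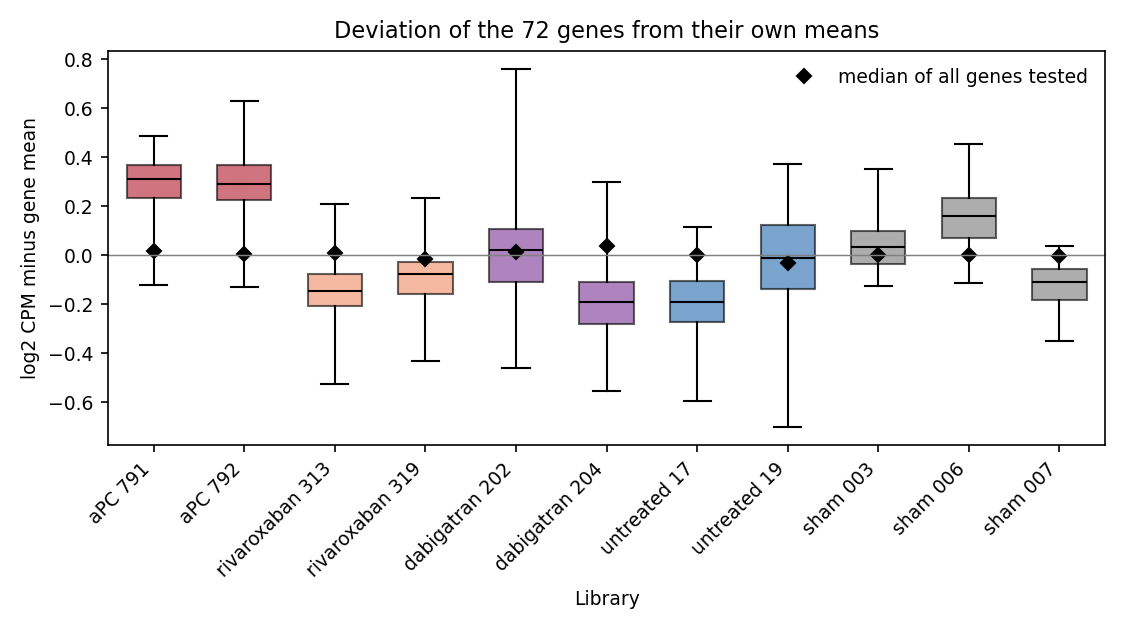
Log2 CPM minus the gene's own mean for the 72 genes in each library; boxes show quartiles, lines the median, whiskers the lowest and highest gene, and diamonds the median of all 13541 genes tested. The median was 0.31 and 0.29 in the aPC libraries and between -0.19 and 0.16 in the other 9, while the diamonds stayed near 0.

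The most variable gene was Mrpl34 (SD 0.42 on the log2 scale over the 11 libraries), ahead of Mrps16 (0.33), Mrps18b (0.31) and Mrpl52 (0.31). The least variable were Mrpl48 (0.11), Mrps5 (0.12), Mrps17 (0.15) and Mrps28 (0.16). Mrps5, Mrps17 and Mrps28 are small-subunit proteins and Mrpl48 belongs to the large subunit. Mrpl48 stood at 5.86 and 5.69 log2 CPM in aPC, 5.55 in both rivaroxaban, 5.60 and 5.47 in dabigatran, 5.57 and 5.70 in untreated and 5.51, 5.66 and 5.56 in sham hearts. Its aPC libraries overlapped the untreated ones. Mrpl24, which lies near the tunnel exit, stood at 5.36 and 5.53 in aPC, 5.37 and 5.60 in rivaroxaban, 5.41 and 5.37 in dabigatran, 5.22 and 4.76 in untreated and 5.49, 5.59 and 5.34 log2 CPM in sham hearts. Its untreated pair was the lowest and the other groups overlapped one another. Mrps10, of the small-subunit head, stood at 4.85 and 4.58 in aPC, 4.41 and 4.53 in rivaroxaban, 5.04 and 4.52 in dabigatran, 4.74 and 4.65 in untreated and 4.53, 4.60 and 4.44 log2 CPM in sham hearts, and its highest value was in Dabi-202.

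Over the 10 comparisons below, 40 of the 72 genes were called in 0, 20 in 1, 7 in 2, 3 in 3 and 2 in 4. In single comparisons 0% to 23.3% of all tested genes were called, and the like tally over all genes was not made. The comparisons share libraries, so these counts are not independent of each other.

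The first comparison sets hearts given aPC beside those labelled untreated. Of the 72 genes, 22 rose in aPC hearts and 0 fell, at an adjusted p under 0.05 in limma (Benjamini-Hochberg over 13541 genes). Among all tested genes 17.6% were called in either direction and 7.44% were called higher. The median log2 fold change of the 72 was 0.39 (0.42 for Mrpl and 0.34 for Mrps genes), against 0.07 for all genes, and it was above 0 in 71 of the 72. Both aPC libraries lay above both untreated libraries in 58 genes, where 31.6% of all genes did so. The rise was spread over both subunits, with 15 of 44 Mrpl and 7 of 28 Mrps genes called, and over both origins, with 12 of 44 genes that have a bacterial counterpart and 10 of 28 that are specific to mitochondria.

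Mrpl34, a large-subunit protein with a bacterial counterpart (ENSMUSG00000034880, chr8:71464959-71465747, mm10), stood at 5.82 and 6.02 log2 CPM in aPC hearts, 5.34 and 5.37 in rivaroxaban, 5.02 and 5.08 in dabigatran, 4.79 and 4.88 in untreated and 5.74, 5.84 and 5.37 in sham hearts. The aPC, rivaroxaban, dabigatran and untreated pairs did not overlap one another, and the aPC and sham libraries did. Its aPC to untreated log2 fold change was 1.08 ± 0.17 (limma's standard error, as after every fold change below), with an adjusted p of 0.00423. Mrps16, a small-subunit protein whose loss in people impairs mitochondrial translation (ENSMUSG00000049960, chr14:20389304-20393634, mm10), stood at 5.55 and 5.67 in aPC, 5.20 and 5.17 in rivaroxaban, 5.09 and 5.07 in dabigatran, 4.63 and 4.68 in untreated and 5.33, 5.56 and 5.23 log2 CPM in sham hearts. Its untreated pair was the lowest of all, and aPC and sham libraries overlapped. Mrps16 rose by 0.96 ± 0.14 in aPC against untreated hearts (adjusted p = 0.00391).

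Another 4 genes complete the 6 largest rises. Mrpl36, a small protein of the large subunit, stood at 5.10 and 5.24 log2 CPM in aPC against 4.64 and 4.16 in untreated hearts, a rise of 0.76 ± 0.19 (adjusted p = 0.0246). Mrpl47, which lies near the exit of the peptide tunnel, stood at 4.70 and 4.47 in aPC against 4.04 and 3.61 log2 CPM in untreated hearts, a rise of 0.76 ± 0.19 (adjusted p = 0.0257). In both, the untreated replicates lay further apart than the aPC replicates. Mrpl21, a large-subunit protein, stood at 5.40 and 5.34 in aPC against 4.69 and 4.74 log2 CPM in untreated hearts, a rise of 0.66 ± 0.16 (adjusted p = 0.0228). Mrps12, which lines the decoding site, stood at 5.28 and 5.35 in aPC against 4.68 in each of the untreated hearts, a rise of 0.64 ± 0.14 (adjusted p = 0.017). The remaining 16 called genes rose by 0.48 to 0.62. The only gene below 0 was Mrps18b, at 4.37 and 4.36 log2 CPM in aPC against 4.45 and 4.65 in untreated hearts (-0.19 ± 0.18, adjusted p = 0.459).

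The count of 22 rested on both aPC libraries. Nearly all or all of these calls were lost without aPC-791 or aPC-792, and the share of all genes called fell too. The median log2 fold change was 0.41 and 0.40 in those fits. The count also fell without either rivaroxaban library, and was 12 without sham replicate 003. It was 0 in a fit of these groups alone, where 0.0222% of all genes were called, and 0 with a weight for each library. It was 7 when libraries were scaled by their own totals in place of TMM. The median stayed between 0.32 and 0.49 whichever library was left out. Errors and p against untreated hearts run small, since the fit pools the spread of the 5 groups and the untreated pair spread most. Beside these values, monocyte and macrophage markers summed to 534 to 566 CPM in aPC against 158 to 175 CPM in untreated hearts (4 of 8 called higher), neutrophil markers to 42.6 to 109 against 108 to 165 CPM (1 of 8 lower) and cardiomyocyte markers to 62953 to 66228 against 65734 to 84033 CPM (0 of 7 called). Fibroblast markers had 0 of 6 called, and endothelial markers 1 of 5 higher and 1 lower. No marker of the first 3 lists was at 0 in either group, and their part in the result was not tested.

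**Figure D4:**
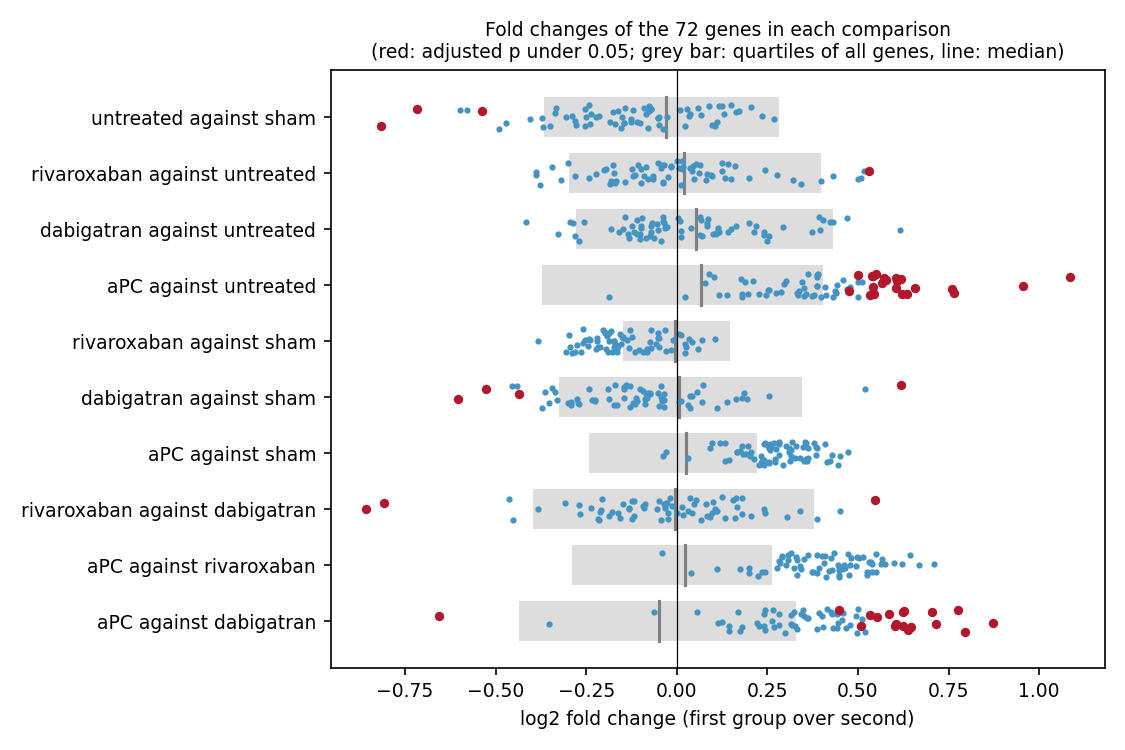
Log2 fold change of each of the 72 genes in the 10 comparisons, first-named group over the second; red points passed an adjusted p under 0.05 in limma, grey bars span the quartiles of all 13541 genes and grey lines their median. The points of the 4 aPC comparisons lie mostly to the right of 0, with medians of 0.27 to 0.42, and those of the other 6 have medians of -0.16 to -0.01.

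Proteins with textbook roles were looked at next. Mrpl12, Mrpl10 and Mrpl11 form the stalk and its base, where translation factors bind. Mrpl12 stood at 6.43 and 6.37 log2 CPM in aPC, 5.67 and 5.72 in rivaroxaban, 6.10 and 5.71 in dabigatran, 5.69 and 6.17 in untreated and 6.11, 6.25 and 5.87 in sham hearts, and only the aPC pair lay clear of every other library. Against untreated hearts it gave 0.47 ± 0.19 (adjusted p = 0.111), Mrpl10 gave 0.43 ± 0.14 (adjusted p = 0.0582) and Mrpl11 gave 0.41 ± 0.18 (adjusted p = 0.12). None of these passed the threshold. Mrpl44, whose fold resembles ribonuclease III, rose by 0.48 ± 0.14 (adjusted p = 0.0389), and Mrpl45, which helps to hold the ribosome to the inner membrane, by 0.54 ± 0.15 (adjusted p = 0.0306). Mrpl58, a peptidyl-tRNA hydrolase that releases stalled chains, gave 0.44 ± 0.14 (adjusted p = 0.0525), and Mrpl3, which reaches toward the peptidyl transferase centre, 0.39 ± 0.18 (adjusted p = 0.143). Mrps22 gave 0.48 ± 0.19 (adjusted p = 0.105), Mrps30 0.27 ± 0.15 (adjusted p = 0.206) and Mrps18a 0.21 ± 0.22 (adjusted p = 0.503). Mrps7, which sits in the head of the small subunit, stood at 6.48 and 6.39 in aPC against 6.14 and 6.50 log2 CPM in untreated hearts, where the libraries overlapped (0.12 ± 0.16, adjusted p = 0.603).

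Against dabigatran hearts, aPC hearts had 17 genes higher and 1 lower, where 21.5% of all genes were called in either direction and 9.21% higher. The median log2 fold change was 0.40, against -0.05 for all genes, and both aPC libraries lay above both dabigatran libraries in 62 of 72 genes (29.4% of all genes). Mrps35, a mitochondria-specific protein of the small subunit, stood at 6.35 and 6.39 log2 CPM in aPC, 5.94 and 5.98 in rivaroxaban, 5.53 and 5.62 in dabigatran, 5.65 and 6.01 in untreated and 5.96, 5.95 and 5.85 in sham hearts. Its aPC pair was above every other library and its dabigatran pair below every other. It was 0.80 ± 0.14 higher in aPC than in dabigatran hearts (adjusted p = 0.00455), and was called under all 19 alternatives. The other large rises were Mrpl34 (0.87 ± 0.17, adjusted p = 0.00625), Mrpl55 (0.78 ± 0.14, adjusted p = 0.00537), Mrpl28 (0.71 ± 0.17, adjusted p = 0.014), Mrps36 (0.71 ± 0.16, adjusted p = 0.0126) and Mrps23 (0.65 ± 0.14, adjusted p = 0.0116). Mrps36 is also known as a subunit of the alpha-ketoglutarate dehydrogenase complex, so its place among ribosomal proteins rests on its name. The gene that fell was Mrps18b (-0.66 ± 0.18, adjusted p = 0.0257).

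The median log2 fold change stayed between 0.29 and 0.47 whichever library was left out. Most of the 18 calls were lost without either aPC library. The count also fell without Dabi-204, and rose without untreated replicate 17 or 19. Without aPC-791 the share of all genes called fell too. The count was 41 with each library centred on its median gene, where 23.3% of all genes were called, and 5 without TMM. Leaving out TMM moved the median of all genes to -0.29 and that of the 72 genes to 0.15. Neutrophil markers summed to 42.6 to 109 CPM in aPC against 592 to 1041 CPM in dabigatran hearts (7 of 8 called lower), and cardiomyocyte markers to 62953 to 66228 against 43449 to 44911 CPM (2 of 7 higher). Of the monocyte and macrophage markers 2 of 8 were called lower. Their part in the result was not tested.

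Against rivaroxaban hearts 0 genes passed in limma or limma-voom, where 1.54% of all genes were called, and 45 had an unadjusted p under 0.05, all of them higher in aPC hearts. At that unadjusted level stood 20.9% of all genes in either direction and 10% in the higher direction. The median log2 fold change was 0.42, against 0.02 for all genes, 71 of 72 values were above 0, and both aPC libraries lay above both rivaroxaban libraries in 70 genes (33.3% of all genes). The smallest p belonged to Mrpl19, a large-subunit protein at 4.94 and 5.09 log2 CPM in aPC against 4.52 and 4.23 in rivaroxaban hearts (0.64 ± 0.16, adjusted p = 0.0863). Mrps2 gave 0.55 ± 0.15 (adjusted p = 0.0913) and Mrpl55 0.53 ± 0.14 (adjusted p = 0.0928). The count rose without untreated replicate 17 or 19. It was 35 in a fit of the 2 groups alone, where 14.4% of all genes were called, and 49 with a weight for each library. Without TMM the median was 0.17, beside -0.23 for all genes. Monocyte and macrophage markers summed to 534 to 566 CPM in aPC against 299 to 334 CPM in rivaroxaban hearts (1 of 8 called higher), neutrophil markers to 42.6 to 109 against 18.3 to 41.9 CPM (0 of 8 called, 8 above 0) and cardiomyocyte markers to 62953 to 66228 against 54931 to 60811 CPM (0 of 7 called, 7 above 0). Their part in the result was not tested. The comparison of aPC with rivaroxaban and with dabigatran was added after the library values had been seen.

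Against sham hearts 0 of 72 genes passed in limma or limma-voom, where 1.17% of all genes were called, and 23 had an unadjusted p under 0.05, all of them higher in aPC hearts. At that unadjusted level stood 17% of all genes in either direction and 6.68% in the higher direction. The median log2 fold change was 0.27, against 0.03 for all genes, and both aPC libraries lay above all 3 sham libraries in 52 genes (24% of all genes). Mrps35 gave 0.45 ± 0.13 (adjusted p = 0.129), the large-subunit protein Mrpl16 0.47 ± 0.15 (adjusted p = 0.179) and Mrps30 0.38 ± 0.14 (adjusted p = 0.214). With a weight for each library 13 genes were called. Without TMM the median was 0.07, beside -0.17 for all genes. Mrpl34 and Mrps16, with the largest rises over untreated hearts, gave 0.27 ± 0.15 and 0.24 ± 0.13 over sham, and their libraries overlapped. Monocyte and macrophage markers summed to 534 to 566 CPM in aPC against 378 to 546 CPM in sham hearts, and neutrophil markers to 42.6 to 109 against 31.9 to 50.3 CPM, with 0 of 8 called in each list, and their part was not tested.

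Between untreated and sham hearts 3 genes fell and 0 rose, where 10.6% of all genes were called. These were Mrpl34 (-0.82 ± 0.15, adjusted p = 0.0128), Mrps16 (-0.72 ± 0.13, adjusted p = 0.0121) and Mrpl21 (-0.54 ± 0.15, adjusted p = 0.0436). Mrpl21 stood at 4.69 and 4.74 log2 CPM in untreated against 5.29, 5.40 and 5.06 in sham hearts, and in all 3 genes no untreated library reached a sham library. The calls of Mrpl34 and Mrps16 were lost without sham replicate 006, and that of Mrpl21 in 10 of 19 alternatives. The count rose without untreated replicate 17. It was 0 with a weight for each library, and 0 in a fit of the 2 groups, where 3.48% of all genes were called. Over the 72 genes the median was -0.12, against -0.03 for all genes, 52 values were below 0, and 20 genes had both untreated libraries below all sham libraries (22.1% of all genes). Monocyte and macrophage markers summed to 158 to 175 CPM in untreated against 378 to 546 CPM in sham hearts (4 of 8 lower), and neutrophil markers to 108 to 165 against 31.9 to 50.3 CPM (6 of 8 higher). Their part in the result was not tested.

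**Figure D5:**
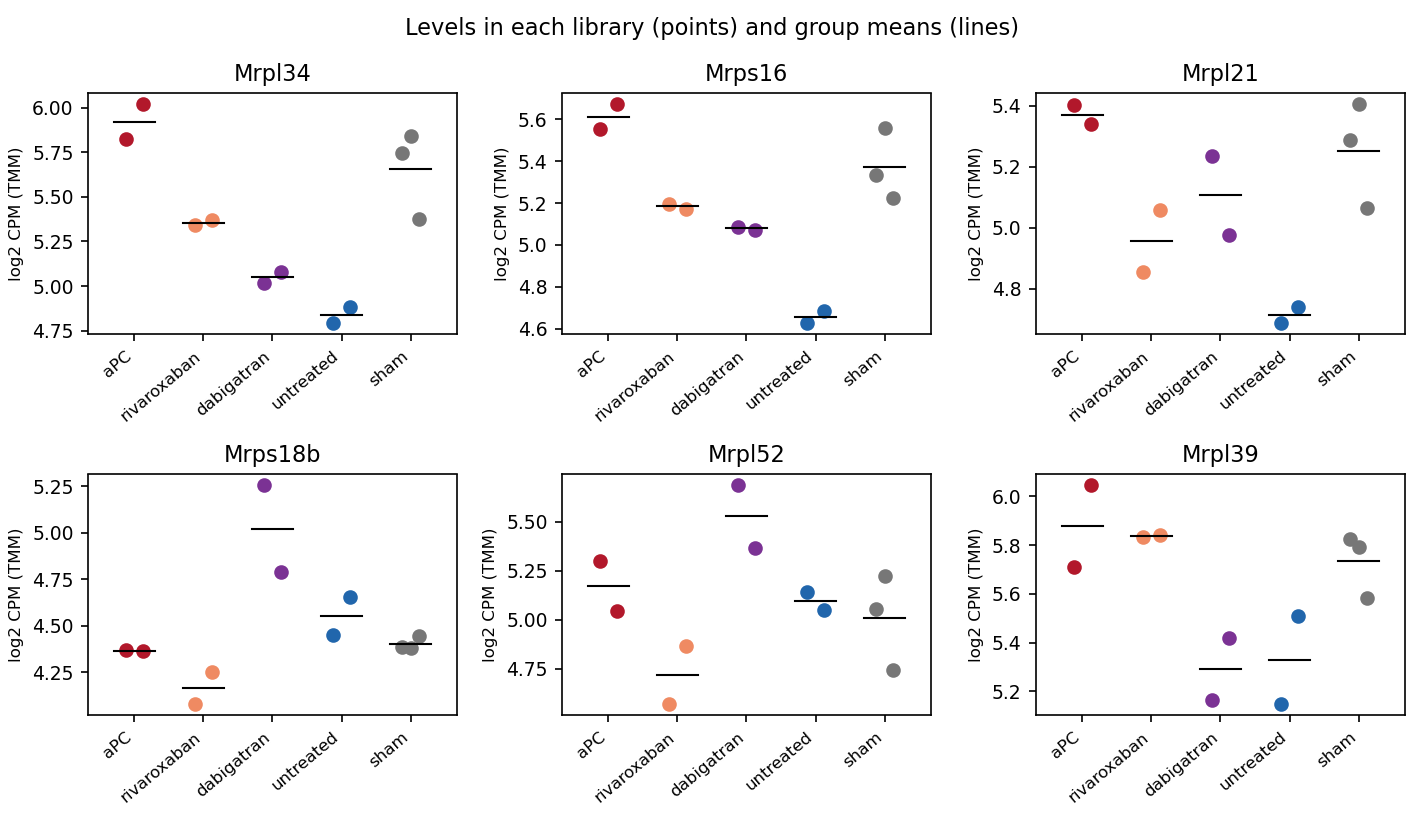
Log2 CPM of Mrpl34, Mrps16, Mrpl21, Mrps18b, Mrpl52 and Mrpl39 in each library (points) with group means (lines); the axes do not start at 0. The untreated pair is lowest for the first 3 genes, the dabigatran pair is highest for Mrps18b and Mrpl52, and the rivaroxaban pair lies above the dabigatran pair for Mrpl39.

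Few of these genes passed the test in rivaroxaban or dabigatran hearts against untreated hearts. In rivaroxaban hearts 1 gene rose, Mrps16 (0.53 ± 0.14, adjusted p = 0.0477), where 8.47% of all genes were called. That call was lost in 15 of 19 alternatives, and the count rose without untreated replicate 17. Mrpl34 gave 0.52 ± 0.17 (adjusted p = 0.0768) and Mrpl39 0.51 ± 0.18 (adjusted p = 0.0922). In dabigatran hearts 0 genes passed in limma or limma-voom, where 13.8% of all genes were called, and 7 of the 72 had an unadjusted p under 0.05, against 31.7% of all genes. Mrpl47 gave 0.62 ± 0.19 (adjusted p = 0.0578), Mrps16 0.42 ± 0.14 (adjusted p = 0.0745) and Mrps18b 0.47 ± 0.18 (adjusted p = 0.102). The medians were -0.02 for rivaroxaban and -0.01 for dabigatran, against 0.02 and 0.05 for all genes, and leaving out single libraries moved them between -0.12 and 0.096 for rivaroxaban and between -0.14 and 0.093 for dabigatran. The count for dabigatran rose without untreated replicate 17. In rivaroxaban against untreated hearts 6 of 8 neutrophil markers were called lower, 4 of 8 monocyte and macrophage markers higher and 0 of 7 cardiomyocyte markers either way. In dabigatran hearts 5 of 8 neutrophil and 6 of 8 monocyte and macrophage markers were called higher, and 2 of 7 cardiomyocyte markers lower. Their part in these values was not tested.

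Set against sham, dabigatran hearts had 1 gene higher and 3 lower, where 18.5% of all genes were called. Mrps18b rose by 0.62 ± 0.16 (adjusted p = 0.0261). Mrpl34 (-0.60 ± 0.15, adjusted p = 0.0225), the large-subunit interface protein Mrpl14 (-0.53 ± 0.14, adjusted p = 0.0278) and Mrpl55 (-0.44 ± 0.13, adjusted p = 0.0422) fell. Mrpl14 stood at 5.15 and 4.94 log2 CPM in dabigatran against 5.56, 5.75 and 5.39 in sham hearts, with no overlap. In 19 genes both dabigatran libraries lay below all sham libraries, where 25.9% of all genes did so. The 4 calls became 0 without sham replicate 003 or 006, and 2 without sham replicate 007. Calls were also lost without Dabi-202 or Dabi-204, and the count rose without untreated replicate 17 or 19. The median of -0.10 became 0.015 without Dabi-204. Neutrophil markers summed to 592 to 1041 CPM in dabigatran against 31.9 to 50.3 CPM in sham hearts (8 of 8 higher), and cardiomyocyte markers to 43449 to 44911 against 55630 to 76861 CPM (2 of 7 lower). Of the monocyte and macrophage markers 3 of 8 were called higher. Their part in these values was not tested.

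Rivaroxaban against sham gave 0 calls among the 72 genes in limma or limma-voom and 0% of all genes, with 0 of the 72 and 5.62% of all genes at an unadjusted p under 0.05. Of the 72 values 62 were below 0, as were 6923 of all 13541. The median was -0.16, against -0.01 for all genes. These genes move together between libraries, and sham replicates 006 and 007 alone differed by a median of 0.27. Both rivaroxaban libraries lay below all sham libraries in 20 genes (16.4% of all genes). The smallest p belonged to Mrpl12 (-0.38 ± 0.18, adjusted p = 0.895), Mrpl45 (-0.28 ± 0.13, adjusted p = 0.91) and Mrps17 (-0.25 ± 0.12, adjusted p = 0.913). Whichever library was left out, the median lay between -0.23 and -0.09.

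Rivaroxaban and dabigatran hearts differed in 3 genes, where 23.3% of all genes were called. Mrps18b, a small-subunit protein of the S18 family (ENSMUSG00000024436, chr17:35910379-35916389, mm10), stood at 4.08 and 4.25 log2 CPM in rivaroxaban, 5.25 and 4.79 in dabigatran, 4.37 and 4.36 in aPC, 4.45 and 4.65 in untreated and 4.39, 4.38 and 4.44 in sham hearts. Both dabigatran libraries were above all 9 others and both rivaroxaban libraries below them. Its rivaroxaban to dabigatran log2 fold change was -0.86 ± 0.18 (adjusted p = 0.00764). Mrpl52, a mitochondria-specific large-subunit protein, stood at 4.57 and 4.87 in rivaroxaban, 5.69 and 5.37 in dabigatran, 5.30 and 5.05 in aPC, 5.14 and 5.05 in untreated and 5.05, 5.22 and 4.75 log2 CPM in sham hearts. Its dabigatran pair was again the highest, and rivaroxaban overlapped sham. It was lower in rivaroxaban than in dabigatran hearts by -0.81 ± 0.20 (adjusted p = 0.0156). Mrpl39, a mitochondria-specific large-subunit protein, stood at 5.83 and 5.84 log2 CPM in rivaroxaban against 5.16 and 5.42 in dabigatran hearts and was higher by 0.55 ± 0.18 (adjusted p = 0.0469). The calls of Mrps18b and Mrpl52 were lost without Riva-313 or Dabi-202, which left 0 calls, and that of Mrpl39 in 10 of 19 alternatives. The count rose without untreated replicate 17 or 19. Neutrophil markers summed to 18.3 to 41.9 CPM in rivaroxaban against 592 to 1041 CPM in dabigatran hearts (8 of 8 lower). Of the monocyte and macrophage markers 5 of 8 were called lower. Among 7 cardiomyocyte markers 0 were called and 7 were above 0. The part of these markers in these values was not tested.

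Some members share exon bases with a neighbour, and the strand setting of the count is not given in the sources used here. Of the 72 genes, 30 share some exon bases and 7 share over 20% of theirs. Mrps18b shares 30.5% with the antisense gene Gm16279, Mrpl19 36% with Gcfc2, Mrpl43 33.4% with Twnk and Mrpl24 26.3% with Rrnad1, all on the opposite strand, and Mrps25 shares 69.8% with Nr2c2. Mrpl23, Mrpl48 and Mrps36 have 5 named pseudogenes between them, and reads could be split between these copies. Values of these genes are uncertain to that extent.

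Genes around the mitochondrial ribosome were counted from gene lists. In aPC against untreated hearts 7.44% of all tested genes were called higher and 17.6% in either direction. Of 25 assembly factors, 5 rose and 0 fell in aPC against untreated hearts: Mrm1, a ribosomal RNA methyltransferase (1.48 ± 0.29, adjusted p = 0.00981), Trmt2b, a uridine methyltransferase (0.57 ± 0.13, adjusted p = 0.0181), Tfb1m, which dimethylates the small-subunit RNA (1.30 ± 0.35, adjusted p = 0.033), Fastkd2 (0.55 ± 0.16, adjusted p = 0.0381) and Mtg2 (0.64 ± 0.20, adjusted p = 0.0491). Of 15 translation factors, 3 rose and 1 fell, with Mtif2, the initiation factor, at 0.79 ± 0.16 (adjusted p = 0.0127), the release factor Mtrf1 at 0.76 ± 0.22 (adjusted p = 0.0422) and Mtfmt, which formylates the initiator tRNA, at -0.58 ± 0.18 (adjusted p = 0.0484). Of 16 genes listed under mitochondrial transcription and RNA processing 3 rose (Mterf2, Twnk and Tefm). Twnk codes for a DNA helicase and shares exon bases with Mrpl43, which was called too, so these calls may not be separate. Of 17 mitochondrial aminoacyl-tRNA synthetases and 5 ribosomal proteins with other symbols 0 passed. The medians of these lists lay between 0.22 and 0.43, against 0.07 for all genes. Against untreated hearts 1 of the 25 assembly factors was also called higher in rivaroxaban hearts and 1 in dabigatran hearts, and 0 lower. The highest values were 1.28 and 1.01, where 4.02% and 8.71% of all genes were called higher.

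Set against dabigatran, aPC hearts had 7 of 15 translation factors higher and 0 lower, where 9.21% of all genes were called higher. The elongation factor Gfm1 stood at 0.67 ± 0.11 (adjusted p = 0.00366), Taco1, a translational activator, at 0.89 ± 0.19 (adjusted p = 0.00944), the elongation factor Tufm at 0.67 ± 0.14 (adjusted p = 0.00968) and the recycling factor Gfm2 at 0.60 ± 0.13 (adjusted p = 0.0101). In dabigatran against sham hearts 4 of the 15 fell and 0 rose, where 6.82% of all genes were called lower, namely Gfm2, Gfm1, Taco1 and Tufm, by -0.64 (Taco1) to -0.40 (Gfm1). In untreated against sham hearts 1 of the 15 fell, Mtif2 (-0.70 ± 0.15, adjusted p = 0.0195), with Mrm1 (-1.39 ± 0.26, adjusted p = 0.0138) and Tfb1m (-1.32 ± 0.32, adjusted p = 0.0313) among 25 assembly factors, where 5.52% of all genes were called lower. These comparisons share libraries, so their values are given side by side only.

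Among 10 nuclear regulators of mitochondrial genes, 1 rose and 2 fell in aPC against untreated hearts, where 17.6% of all genes were called. Esrra, the estrogen-related receptor alpha, stood at 7.77 ± 0.11 log2 CPM in aPC against 7.21 ± 0.05 in untreated hearts (SD, n = 2 each), a rise of 0.56 ± 0.11 (adjusted p = 0.0112). The growth factor-responsive transcription factor Myc gave -1.82 ± 0.36 (adjusted p = 0.0108) and the coactivator Pprc1 -1.26 ± 0.31 (adjusted p = 0.0223). In untreated against sham hearts, where 10.6% of all genes were called, Esrra gave -0.53 ± 0.10 (adjusted p = 0.0152) and Myc 2.19 ± 0.33 (adjusted p = 0.00566). Rivaroxaban hearts against untreated also had 2 of the 10 regulators lower and 0 higher, with a lowest value of -1.87, where 8.47% of all genes were called. Between aPC and rivaroxaban hearts 0 of the 10 were called, where 1.54% of all genes were. The messages encoded by mitochondrial DNA, the substrates of this ribosome, were not analysed here, and neither was Mrps34.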

How the data were processed

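Messenger RNA of heart tissue was measured in 11 libraries of 5 groups. The deposited table holds log2 CPM values, normalized by TMM by the authors per the file name, and the submitters' processing notes name bcl2fastq, FastQC, Trim Galore, STAR and edgeR with build mm10 and no versions. The read counter, its strand setting and any gene filter were not given in the sources used here. Per the labels' protocols, polyA RNA from 500 ng of total RNA was made into strand-marked libraries.

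Turned back to a linear scale, 100% of values in each library were whole multiples of 1 read, to within 0.05, which gave the depth. The prior added before the log understates fold changes of low genes. Genes with at least 0 log2 CPM in at least 3 libraries (13541, all 72 members among them) were tested with two-sided limma-trend in 1 fit of 5 group means, with 6 residual degrees of freedom, and calls were made where p, adjusted over all tested genes by Benjamini and Hochberg, was under 0.05. The groups share no replicate number. R 4.3.3, limma 3.58.1 and statmod 1.5.0 were used, and the procedure was tested on simulated data. Of 100 genes given a log2 change of 1 in size, 27 were recovered in rivaroxaban against untreated. The count was 29 in aPC against untreated and at most 58, in untreated against sham. Of 100 genes given a larger change, 98 to 100 were recovered. Comparisons with few or 0 calls can thus miss log2 changes of 1 or smaller. The planned edgeR test was not run because the deposited unit is not counts; limma-voom on the recovered reads took its place. Exon lengths, positions and overlaps come from GENCODE release M21, which held 16654 of the 16658 identifiers.

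The members and gene lists were chosen with earlier results of these data known. Named genes are those with the largest rises and falls among calls (up to 6 each way), the 3 smallest p where fewer than 6 were called, the 4 extremes of level and of spread at each end, a fixed set with textbook roles, up to 4 called genes per neighbouring list, and members called against the majority. Other genes named (Mrpl46, Mtg2, Ryr2, Mrpl24 and Mrps10 for their profiles, the genes that share exon bases or have pseudogenes) were chosen after their values were seen.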

Additional observations from a re-analysis of the deposited data

How the results depend on the processing

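No paired analysis was possible because no replicate number is shared between groups. In all, 127 recomputed counts of called genes stayed within 1.5 times their value and 63 did not, while 175 medians moved by less than the spread between replicates, 14 moved further and 1 reversed. A reversal was counted only for medians further from 0 than that spread (0.104). Some smaller medians also changed sign, such as rivaroxaban against dabigatran, from -0.024 to 0.075 with libraries centred on their median. Rivaroxaban against sham had 0 calls throughout. A stricter filter of 2 log2 CPM and a pseudocount of 1 CPM changed none of the 10 counts by over 1.5 times. Rivaroxaban against untreated (1 call) gave 0 with no filter, with libraries centred on their median, in a fit of the 2 groups, with limma-voom and with library weights. Centring gave 7 calls (1 higher, 6 lower) for dabigatran against sham, 5 (3 higher, 2 lower) for rivaroxaban against dabigatran and 41 for aPC against dabigatran. In these fits 19%, 23.2% and 23.3% of all genes were called. Fits of the 2 groups alone gave 0 calls for untreated against sham, 0 for aPC against untreated, 1 for aPC against sham and 35 for aPC against rivaroxaban. Of all genes 3.48%, 0.0222%, 6% and 14.4% were called there, in the same order. Library totals without TMM gave 5 for untreated against sham, 3 for dabigatran against untreated, 7 for aPC against untreated, 2 (1 higher, 1 lower) for dabigatran against sham and 5 for aPC against dabigatran. On that scale the median of all genes shifted to -0.04, -0.29, -0.23 and -0.17 in aPC against untreated, dabigatran, rivaroxaban and sham, and that of the members was 0.28, 0.15, 0.17 and 0.07. Library weights (0.24 for each untreated library, up to 3.15 in sham) gave 0 for untreated against sham, 0 for aPC against untreated, 7 for dabigatran against sham, 13 for aPC against sham, 5 for rivaroxaban against dabigatran and 49 for aPC against rivaroxaban. Here and above, counts without TMM, with weights or without a library mostly lack the share of all genes called. Such counts are therefore not a result about these genes alone. The causes were not tested. Leaving out each library in turn gave 0 to 22 calls for aPC against untreated, 1 to 35 for aPC against dabigatran, 0 to 15 for aPC against rivaroxaban, 0 to 1 for aPC against sham, 0 to 7 for rivaroxaban against untreated, 0 to 6 for dabigatran against untreated, 0 to 11 for dabigatran against sham, 0 to 6 for rivaroxaban against dabigatran and 0 to 10 for untreated against sham. A lone library is then assumed to vary like the other groups. The median of dabigatran against sham reversed, to 0.015 without Dabi-204, and was otherwise as low as -0.19. Voom, weights, totals without TMM and the comparisons of aPC with rivaroxaban and dabigatran were chosen after seeing the data. Each group has 2 or 3 libraries, and no lower depth was tried.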
